A study of Mus musculus with 2 samples.

Results

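Lipid droplets store triglyceride under a single layer of phospholipid, and the proteins on that surface set how large a droplet grows and how readily its fat is released. The genes described here encode 10 such proteins and were chosen by name: the perilipin coat proteins Plin1, Plin2, Plin3, Plin4 and Plin5, the CIDE proteins Cidec and Cidea, and the formation factors Fitm1, Fitm2 and Bscl2, out of 46095 genes in the table. Perilipins cover the droplet and hold back lipases, CIDE proteins join droplets at their contact sites so that small droplets empty into large ones, and the formation factors act in the membrane of the endoplasmic reticulum where new droplets bud. In white adipocytes, Plin1 and Cidec are the coat and fusion proteins typical of large droplets. Both genes, and Plin4 among the others, are known targets of PPAR-γ, the master transcription factor of adipogenesis.

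RNA was sequenced from C3H10 cells (C3H/10T1/2), an established mouse embryonic mesenchymal line that becomes adipocyte-like after hormonal induction. One group, NC, received a negative control antisense oligonucleotide (ASO), and the other received an ASO against MALAT1, a nuclear long noncoding RNA, with 100 nM of ASO and 1 library in each group. Both were transfected as undifferentiated cells, grown to confluence, induced for 2 days with isobutyl-1-methylxanthine, dexamethasone, troglitazone (a PPAR-γ agonist) and insulin, kept in insulin afterwards and collected at day 6 of differentiation, so any difference covers the whole course of differentiation. The labels give the strain as C57BL/6, although the line carries the name of C3H mice, and which of the study's ASOs was sequenced is not given in the sources used here.

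Sequencing depth was 58147539 counts in the control and 61653549 counts in the knockdown library. Malat1 itself had 170402 counts in control cells against 45396 in knockdown cells, which left 24.7% of the control level after scaling. Levels below are CPM, a gene's counts per 1000000 counts of a library whose size was scaled by edgeR's TMM factors, and a ratio is the knockdown level over the control level on the log2 scale with its 95% exact interval for counting error. A gene was called when it differed at least 2-fold and its interval left out 0. With 1 library per group no difference has a replicate check, the intervals leave out the variation between cultures, and no p-value is given.

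The cells expressed adipocyte genes in both groups. Of 10 adipocyte markers, 9 had a summed count of at least 10, and all 9 ratios were below 0, with 7 called lower, where 4.6% of all measured genes were, and a median of -1.37. The summed marker level was 5028 CPM in control cells and 1869.5 CPM in knockdown cells. Leptin (Lep) had 1 count in control cells against 0 in knockdown cells, so this hormone of mature fat was at the floor in either library. Preadipocyte and fibroblast markers had a median ratio of 0.27 over 8 measured genes, and 7 of these ratios were above 0. Of the 8, 1 was called higher, where 2.71% of all measured genes were. This was Cd34, with 19 counts in control and 69 in knockdown cells. The summed level of the preadipocyte and fibroblast markers was 7415 CPM in control and 8013 CPM in knockdown cells. Since these are bulk samples, fewer adipocytes and less RNA per adipocyte cannot be told apart for any gene below, and the part of the marker difference in the results was not tested.

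Stretches of 120 bases upstream of annotated start sites are shown for Plin1, Cidec and Plin3. Plin1 and Cidec were both lower and had nearly the same ratio, while Plin3 stayed close to the control level. Each stretch covers positions -250 to -131 from a RefSeq start site, is read 5′ to 3′ on the gene's own minus strand in GRCm38.p6, and carries in capitals any match to the C/EBP element TTGCNNAA. Of the start sites of Cidec, the one shown was picked because its stretch holds a match. Plin2, Plin4, Fitm2 and Bscl2 were also lower, but had no match and are not shown. The Cidec stretch lies inside the annotated Cidec gene, upstream of an internal start site, and inside the noncoding gene Gm52871 that overlaps it. The Plin3 stretch likewise lies inside the GENCODE span of Plin3, which begins farther upstream.
Plin1 (chr7:79732907-79733026): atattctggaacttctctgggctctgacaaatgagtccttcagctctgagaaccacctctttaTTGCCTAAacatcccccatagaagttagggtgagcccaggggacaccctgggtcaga
Cidec (chr6:113434895-113435014): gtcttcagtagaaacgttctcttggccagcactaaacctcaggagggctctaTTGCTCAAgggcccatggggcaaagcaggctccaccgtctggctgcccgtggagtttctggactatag
Plin3 (chr17:56290642-56290761): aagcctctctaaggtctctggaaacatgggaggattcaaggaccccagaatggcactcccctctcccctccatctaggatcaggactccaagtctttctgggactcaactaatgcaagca

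C/EBP proteins are adipogenic transcription factors. Windows before RefSeq start sites were at hand for 9 of the 10 genes, and Cidea was not searched. The 250 bases before each of the 13 start sites of these 9 genes were searched on both strands. TTGCNNAA matched in 2 of the 13 windows, one of Plin1 and one of Cidec, against 9.56% of all 32851 windows in the table. The Plin1 window held a second match, TTGCCCAA, at position -58, inside a first exon of other annotated Plin1 transcripts. The other start site of Cidec had no match. The DR1 element that PPAR-RXR dimers bind, searched as 2 copies of AGGTCA in the same direction 1 base apart, was found in none of the 13 windows and in 0.0335% of all windows. Its looser form with AGGNCA copies, the E-box CACGTG and the TATA box TATAAA were likewise in none of the 13, against 0.338%, 6.02% and 12.4% of all windows. These are letter matches in short windows, and the motifs and the genes shown were picked with the counts known. So few windows cannot set the C/EBP matches apart from the share of all windows. Any part of C/EBP proteins in the ratios was not tested.

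The genes differed unequally between the libraries. Plin1, Cidec and Cidea were called lower in MALAT1-knockdown cells, Plin2, Plin4, Fitm2 and Bscl2 were lower by less than 2-fold, Plin3 stood close to its control level, and Plin5 and Fitm1 had too few counts for a direction. A summed count of at least 10 was reached by 9 of the 10 genes, all except Fitm1. Of these 9, 3 were called lower and 0 higher, whereas 4.6% of the 17356 genes with such a count were called lower and 2.71% higher. The median ratio was -0.70 over the 9 genes and -0.0029 over all 17356. Summed, the 10 genes made up 0.262% of control counts and 0.178% of knockdown counts.

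**Figure D1:**
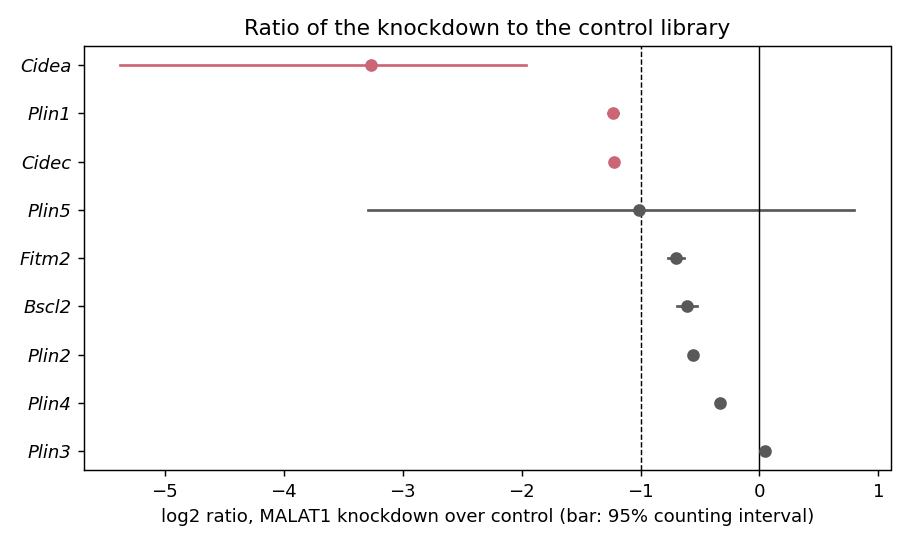
Ratio of MALAT1 knockdown to control on the log2 scale for the 9 genes with a summed count of at least 10; points are the ratios of 1 library to 1 library, bars their 95% counting intervals, red marks called genes, and the dashed line is a 2-fold lower level. Plin1 and Cidec lie on top of each other at -1.23 and -1.22, Plin3 lies at 0.048, and the bars of Cidea and Plin5 are wide because each had 40 counts or fewer per library.

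Plin1, the coat protein of adipocyte droplets and the gatekeeper of hormone-stimulated lipolysis, had 15926 counts in control cells against 7310 in knockdown cells. Scaled levels were 276.0 CPM and 118 CPM, so 42.6% of the control level remained. Its ratio of -1.23 (95% interval -1.27 to -1.19) lay wholly past the 2-fold line. Among the 8251 genes with a mean of at least 1000 counts, 0.351% had a lower ratio than Plin1, and 0.739% were called lower. In GENCODE M21, Plin1 (ENSMUSG00000030546.14) occupies the minus strand of chromosome 7 between 79720218 and 79732903 in GRCm38, the build named in the submitters' processing notes.

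Plin2, the perilipin of small droplets in most cell types, had 45255 counts in control cells against 33053 in knockdown cells. These counts stood for 784 CPM and 532 CPM, and the ratio was -0.56 (95% interval -0.58 to -0.54), or 67.8% of the control level. Plin2 was therefore lower, but less so than Plin1. A pseudogene near its end, Gm12551, matches Plin2 over 259 bases at 96.1% identity, and reads from that stretch may be assigned to either. The difference between the ratios of Plin1 and Plin2, which does not depend on how the libraries are scaled, was -0.67 (95% interval -0.72 to -0.63).

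Plin4, which coats young droplets in adipocytes, had 46134 counts in control cells against 39382 in knockdown cells. Its ratio was -0.33 (95% interval -0.35 to -0.32), so 79.3% of the control level remained. It thus sat between Plin2 and Plin3. Plin4 is, like Plin1, an adipocyte perilipin and a known PPAR-γ target. The ratio of Plin1 minus that of Plin4 was -0.90 (95% interval -0.94 to -0.85), and the part of PPAR-γ in either was not tested.

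Plin3, a broadly expressed perilipin that moves from the cytosol onto nascent droplets, was the only measured member with a ratio above 0. It had 11600 counts in control cells against 12911 in knockdown cells, or 201 CPM and 208 CPM. The ratio of 0.048 (95% interval 0.012 to 0.084) was small beside the spread of all genes, since 58.1% of the 8251 genes with a mean of at least 1000 counts had a lower one. Plin3 lies on chromosome 17 from 56277476 to 56292873, on the same chromosome and strand as Plin4 (56100591 to 56109803) and Plin5 (56111601 to 56117596).

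Plin5, the perilipin of oxidative tissues that ties droplets to mitochondria, was near the limit of detection. It had 8 counts in control cells against 4 in knockdown cells, and its ratio of -1.02 had a 95% interval from -3.29 to 0.79. No difference was detectable at this depth. Its neighbour Plin4, 1649 bases away, had 46134 counts in the control library, and Lrg1 on the other side, a secreted glycoprotein gene, had 1096 counts in control and 760 in knockdown cells, so genes on either side of Plin5 were well covered.

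**Figure D2:**
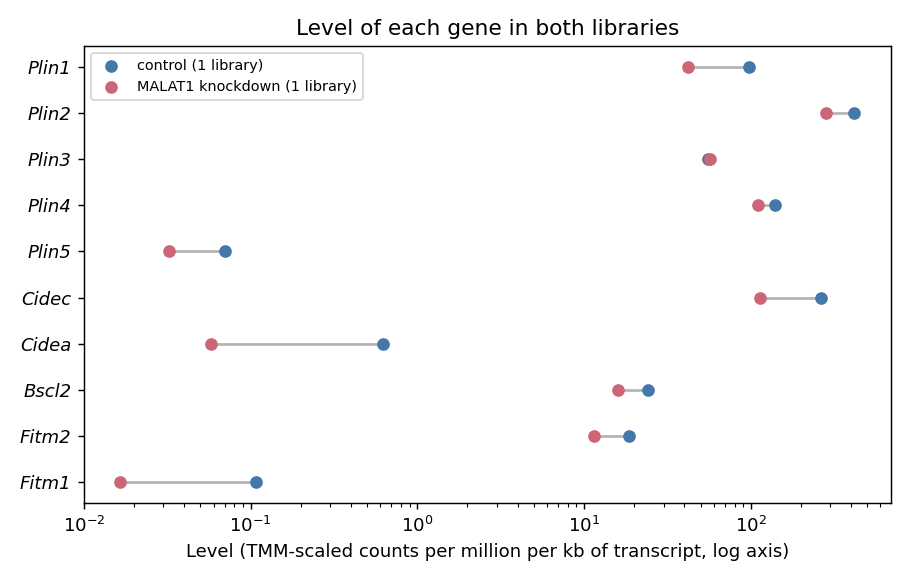
Level of each gene in the control and the knockdown library, in TMM-scaled CPM per kilobase of the longest coding transcript in GENCODE M21, on a log axis; each point is 1 library and grey lines join the libraries of a gene. Plin2 was highest in both libraries at 415 and 282, while Plin5, Cidea and Fitm1 stayed below 1 in both.

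Because reads scale with transcript length, levels were compared between genes only per kilobase. In control cells the order on that scale was Plin2 at 415 CPM per kb, Cidec at 265, Plin4 at 139, Plin1 at 98.0, Plin3 at 55.2, Bscl2 at 24.3 and Fitm2 at 18.6. In knockdown cells Plin2 remained first at 282 CPM per kb, followed by Cidec at 114, Plin4 at 110.1, Plin3 at 57.0, Plin1 at 41.8, Bscl2 at 15.9 and Fitm2 at 11.4. Plin1 thus stood above Plin3 in control cells and below it in knockdown cells, and the gap between Cidec and Plin4 nearly closed. These levels rest on the longest transcript, and the region over which reads were counted is not given in the sources used here.

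The make-up of the perilipin mRNA pool differed accordingly. Of all perilipin counts, Plin1 held 13.4% in control cells (95% Clopper-Pearson interval 13.2% to 13.6%) and 7.89% in knockdown cells (7.72% to 8.06%). Plin3 went the other way, from 9.75% (9.59% to 9.92%) to 13.9% (13.7% to 14.2%). Plin4 held 38.8% in control and 42.5% in knockdown cells, and Plin2 held 38.1% and 35.7%. The pool itself was smaller in knockdown cells, with 118923 counts in the control library and 92660 in the knockdown library, a ratio of -0.47 (95% interval -0.48 to -0.45).

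**Figure D3:**
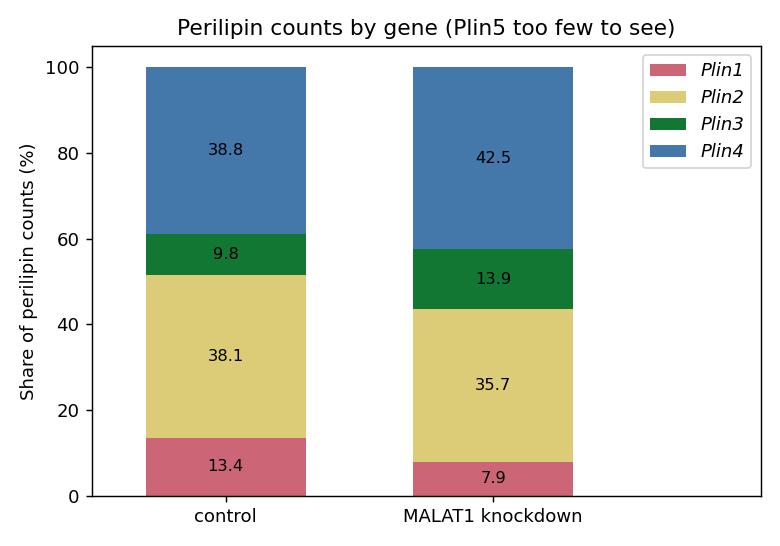
Share of all perilipin counts, in percent, that fell on each perilipin gene in the control and the knockdown library, with 1 library per bar and no correction for transcript length. Plin1 held 13.4% of the control bar and 7.89% of the knockdown bar, and Plin3 held 9.75% and 13.9%.

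Cidec, also called Fsp27, drives the growth of the single large droplet of white fat cells. It had 26326 counts in control cells against 12166 in knockdown cells, or 456 CPM and 196 CPM. Its ratio was -1.22 (95% interval -1.25 to -1.19), with 42.9% of the control level left. Cidec and Plin1, whose products work together at droplet contact sites, could not be told apart: their ratios differed by -0.0098 (95% interval -0.060 to 0.041), a fold of 0.993 (0.959 to 1.03). Its gene spans 113424634 to 113435760 of chromosome 6, minus strand.

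Cidea, the CIDE protein of brown and beige fat, was at 0.622 CPM per kb of transcript in control cells, where Cidec was at 265. It had 40 counts in control cells against 4 in knockdown cells, a ratio of -3.27 (95% interval -5.37 to -1.96). Calls at this depth were frequent, as 12.1% of the 5217 genes averaging under 100 counts were called lower. A long noncoding gene that overlaps the annotated start of Cidea, B430212C06Rik, had 16 counts in control cells against 1 in knockdown cells, and how reads from the overlap were assigned is not given. Other brown adipocyte markers were also scarce: Ucp1, the uncoupling protein, had 1 count in each library, Cox8b had 56 counts in control and 13 in knockdown cells, and Elovl3 had 37 and 6. Dio2 had 299 counts in control and 241 in knockdown cells, a ratio of -0.42, and Prdm16 had 13 and 12. Of the 6 brown markers with a summed count of at least 10, all 6 ratios were below 0. Cox8b and Elovl3 were the 2 called lower, and the part of the brown markers in the Cidea result was not tested.

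The difference between Cidea and the next gene in order, Plin1, was -2.20 (95% interval -3.68 to -0.72), so Cidea lay below Plin1 even with its few counts. In the CIDE pool, Cidea made up 0.152% of counts in control cells (95% Clopper-Pearson interval 0.108% to 0.207%) and 0.0329% in knockdown cells (0.00896% to 0.0841%). Cidec was thus nearly the whole of the CIDE mRNA in either library. The third family member, Cideb, which serves lipoprotein assembly in liver, had 112 counts in control and 95 in knockdown cells, and its ratio of -0.34 had an interval from -0.75 to 0.063.

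The formation factors were lower by less than 2-fold. Bscl2, which encodes seipin, the ring-shaped protein that marks where droplets emerge, had 2752 counts in control cells against 1943 in knockdown cells. Its ratio was -0.61 (95% interval -0.69 to -0.52), or 65.6% of the control level. Fitm2, a widely expressed endoplasmic reticulum protein needed for normal droplet budding, had 4256 and 2818 counts, a ratio of -0.70 (95% interval -0.77 to -0.63), or 61.5%. The ratios of Fitm2 and Bscl2 differed by -0.093 (95% interval -0.20 to 0.016), so their order was not resolved. Gng3, which overlaps Bscl2, had 4 counts in control and 0 in knockdown cells, and the noncoding gene 2310001K24Rik at the start of Fitm2 had 10 and 11, so few reads were assigned to either overlapping gene. By a 1.5-fold line both would be called lower, which would bring the members called lower to 5, against 8.12% of all 17356 genes and 2.84% of the 8251 genes with a mean of at least 1000 counts.

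Fitm1, the relative of Fitm2 found mainly in skeletal and heart muscle, had 6 counts in control cells against 1 in knockdown cells. Its ratio of -2.20 had a 95% interval from -8.22 to 0.35, so no difference was detectable. Muscle markers were all but missing: Myod1, Myog, Acta1 and Myh1 had 0 counts in both libraries, which allows up to 0.0516 CPM in the control and 0.0487 CPM in the knockdown library, and Ckm had 1 count in control and 4 in knockdown cells. Myoglobin (Mb), which brown fat can also express, had 47 counts in control and 9 in knockdown cells.

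**Figure D4:**
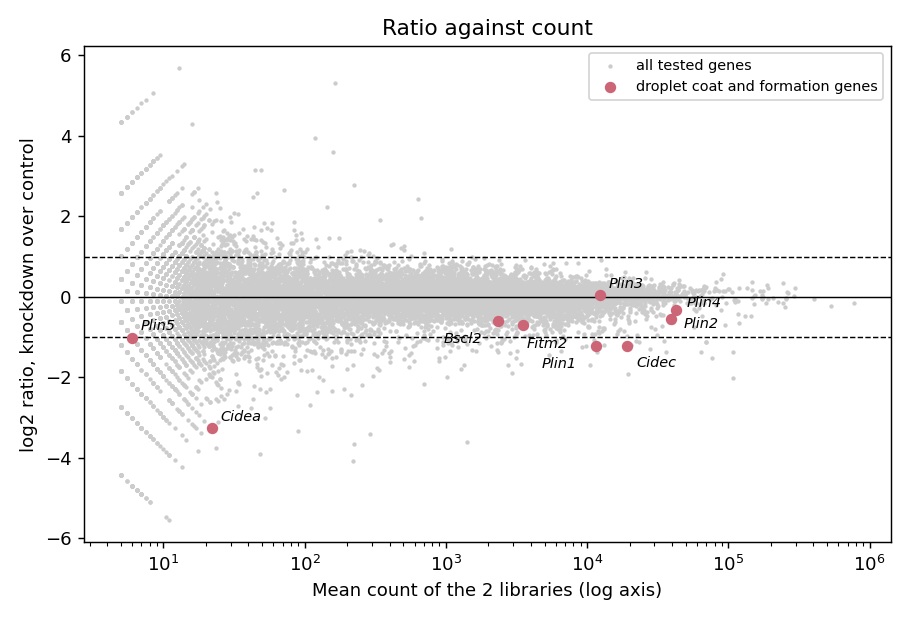
Ratio of knockdown to control on the log2 scale against the mean count of the 2 libraries on a log axis, for all 17356 genes with a summed count of at least 10 (grey) and the 9 droplet genes among them (red); dashed lines mark 2-fold differences. Plin1 and Cidec lie below nearly all genes with a mean of at least 1000 counts, of which 0.739% were called lower.

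Ordered by ratio, the genes ran Cidea, Plin1, Cidec, Plin5, Fitm2, Bscl2, Plin2, Plin4 and Plin3. Of the 8 pairs of neighbours in this order, 3 differed beyond counting error: Cidea from Plin1, Plin2 from Plin4 by -0.23 (95% interval -0.25 to -0.20), and Plin4 from Plin3 by -0.38 (95% interval -0.42 to -0.34). Bscl2 and Plin2 did not, with a difference of -0.049 (95% interval -0.14 to 0.037). Between the pair of Plin1 and Cidec and the less affected genes the gap was resolved, as Fitm2 lay 0.52 above Cidec (95% interval 0.44 to 0.59) and Bscl2 lay 0.62 above Plin1 (95% interval 0.53 to 0.71).

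The members were also set against the adipocyte markers of the same library, which removes the scaling. Summed over the 10 markers, the ratio was -1.43 (95% interval -1.44 to -1.42). Plin1 and Cidec lay closest to it, at 0.20 (95% interval 0.16 to 0.24) and 0.21 (0.17 to 0.24) above the marker sum. Per 1000 marker counts there were 54.9 counts of Plin1 in control and 62.9 in knockdown cells, and 90.7 and 105 counts of Cidec. Plin4 had 159 counts per 1000 marker counts in control and 339 in knockdown cells, and Plin3 had 40.0 and 111. Fabp4 alone made up 52.3% of the marker counts in control cells, and single markers ranged from -0.64 for Cd36 to -2.20 for Aqp7. Plin1 and Cidec lay below only Cd36 and Slc2a4 (-0.70), both with few counts. They lay above all 7 called markers. Relative to the marker sum, 8 of the 9 genes were higher in knockdown cells by their point values, with Plin5 not resolved, and Cidea was lower, at -2.0 (95% interval -3.48 to -0.52).

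Other genes that act at the droplet were taken from hand-written lists. The lipolysis list holds the lipases and their partners. All 7 of its genes had a ratio and interval below 0, 4 were called lower, and the median was -1.10, where 4.6% of all 17356 genes were called lower and 26.4% had an interval below 0. Pnpla2, the triglyceride lipase ATGL, had 46443 counts in control and 23306 in knockdown cells, a ratio of -1.10. Lipe, the hormone-sensitive lipase, had a ratio of -1.12, and Abhd5, the ATGL activator that Plin1 holds in check, one of -0.62. G0s2, an ATGL inhibitor, had 4487 and 1897 counts, a ratio of -1.35, and Pnpla3, a droplet lipase relative, had one of -1.70.

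Triglyceride synthesis genes were lower in all 9 cases, with 4 called lower, against 4.6% of all 17356 genes, and a median of -0.93. Among them Dgat2, which makes triglyceride at growing droplets, had a ratio of -1.21, while Dgat1, which works in the endoplasmic reticulum, had one of -0.72. Acsl1, a long-chain acyl-CoA synthetase of adipocytes, had 90171 and 37346 counts, a ratio of -1.38, while Acsl3, the synthetase of nascent droplets, had one of -0.26. Both ratios lay below 0, with only that of Acsl1 past the 2-fold line.

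Other proteins found on or near droplets, a mixed list, were spread around 0. Of 22 measured genes of this list, 0 were called in either direction, 10 had an interval below 0 and 5 above 0, and the median was -0.079. Rab18, a small GTPase of droplets, had a ratio of 0.085, Vcp, an ATPase that extracts droplet proteins, -0.018, and caveolin (Cav1) -0.0023. Within the list, Tmem159, the seipin partner LDAF1, had 1681 counts in control and 1136 in knockdown cells, a ratio of -0.67 that lay near that of Bscl2. The lowest was Dhrs3, a retinal reductase, at -0.96, and Aifm2, found on droplets of brown fat, stood at -0.89. For scale, 26.4% of all 17356 genes had an interval below 0 and 26.7% above 0.

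**Figure D5:**
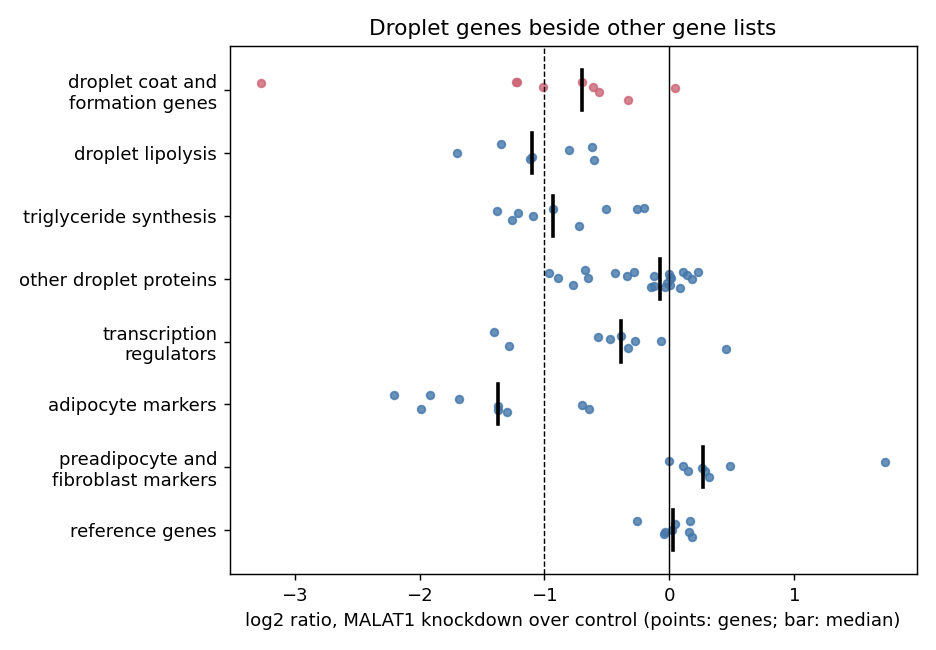
Ratio of knockdown to control on the log2 scale for genes with a summed count of at least 10 in each list, with 1 point per gene (spread vertically for display), black bars at the medians and the dashed line at a 2-fold lower level. The droplet coat and formation genes (red) had a median of -0.70 and ran from -3.27 to 0.048. The median was -1.37 for the adipocyte markers and -0.079 for the other droplet proteins.

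Transcription factors known to act on droplet genes differed among themselves. Pparg had 11816 counts in control cells against 8552 in knockdown cells, a ratio of -0.57 (95% interval -0.61 to -0.53). Its partner Rxra had a ratio of -0.33. Cebpa, which maintains the adipocyte state, was called lower with 4071 and 1652 counts, a ratio of -1.41 (95% interval -1.49 to -1.32), whereas Cebpb, which acts early in adipogenesis, had one of -0.064. Ppard was the other called gene of the 9 in this list, at 118 and 52 counts, where 4.6% of all 17356 genes were called lower. Of the 5217 genes averaging under 100 counts, as Ppard did, 12.1% were called lower. Ppargc1a, a coactivator of oxidative genes, had 107 and 158 counts, a ratio of 0.45. Among 8 reference genes 0 were called, with a median of 0.032 and a range from -0.26 to 0.18.

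Genes next to the members on the chromosome differed by less than 2-fold where their summed count reached 10, apart from B430212C06Rik beside Cidea and from Plin5 beside Plin4, whose few counts are given above. Kif7, a kinesin gene 5392 bases from Plin1, had a ratio of -0.15, while Pex11a, a peroxisome division gene 3053 bases away on the other side, had 1502 counts in control and 865 in knockdown cells, a ratio of -0.90 (95% interval -1.03 to -0.78). On either side of Cidec, Rpusd3 stood at -0.22 and Jagn1 at -0.14. Hnrnpul2 next to Bscl2 stood at 0.063, Dcaf11 and Psme1 around Fitm1 at -0.27 and 0.013, and Ticam1 next to Plin3 at 0.10. Hdgfrp2, whose end overlaps that of Plin4, had a ratio of 0.062. The highest neighbours were Tubb6, a tubulin gene beside Cidea, at 0.46, and Haus6, a spindle gene beside Plin2, at 0.35.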

How the data were processed

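The authors built rRNA-depleted directional libraries and deposited raw read counts per gene symbol for 2 libraries. HISAT2 and GRCm38 are named in the submitters' processing notes; the counting tool, annotation, strand setting and treatment of multiply mapped reads are not given in the sources used here. Transcripts of Bscl2, Fitm2 and Plin2 share at least 200 bases at 95% identity or more with another annotated gene (BLAST+ search of GENCODE M21), so their counts are less certain.

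Genes with a summed count of at least 10 were kept. Library sizes were scaled by TMM (edgeR 4.0.16, R 4.3.3). Ratios used a prior count of 0.5, and 95% Clopper-Pearson intervals were computed with scipy 1.17.1 (Python 3.11.15). Differences between the ratios of 2 genes carry normal-approximation intervals on log counts. All intervals, and the limit of 3 counts taken for genes at 0, cover counting error only, and PCR duplicates would make them too narrow. The quasi-likelihood test needs replicates and was not used. The procedure was tested on simulated counts that held counting error only, so that test cannot cover variation between cultures.

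Members and lists were chosen with earlier results of these data known. All 10 members are named, with Malat1. The nearest genes on each side and the genes of the hand-written lists were also examined, but not every one of them is printed. Alternatives were library totals, DESeq2 1.42.0 size factors, upper-quartile factors, other prior counts, other filters and other fold lines. The study's microarray, qPCR, protein and patient data were not analysed here.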

Additional observations from a re-analysis of the deposited data

How the results depend on the processing

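With 1 library per group, no library could be left out, and no paired analysis was possible because each group holds a single sample. Scaling and prior count left the members called lower at 3, and Plin3 stayed above 0 under each scaling, at most at 0.070. The members' median moved with the filter, to -0.86 with at least 1 summed count, which adds Fitm1, and to -0.61 with at least 10 counts in each library, which drops Cidea and Plin5 and leaves 2 called lower. A 1.5-fold line called 5 members lower. Over all genes, 414 were called lower and 182 higher with at least 10 counts in each library, 1410 and 884 at 1.5-fold, and 289 and 80 where the whole interval had to lie past 2-fold, against 798 and 471. Of 75 values of single genes and of the median of all genes under the alternatives, 72 stayed inside the counting interval or, for that median, moved by less than 0.1; library totals took Plin2 to -0.54, Plin4 to -0.31 and Malat1 to -1.99. Depth limits Plin5, Cidea and Fitm1, whose intervals span more than 3 log2 units.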

Other observations

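Macrophage and endothelial genes were nearly silent. Ptprc and Adgre1, which define macrophages and other blood cells, had 0 counts in both libraries. Csf1r had 3 counts in control and 13 in knockdown cells, and Lyz2 had 7 and 25. Both were called higher, as were 2.71% of all 17356 genes. Their few counts gave wide intervals, 0.15 to 4.46 for Csf1r and 0.48 to 3.18 for Lyz2. Cd68, a lysosomal gene of many cell types, had 172 and 119 counts. Pecam1 had 26 and 25 counts, and Cdh5 and Kdr had 1 count or fewer in each library.

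Some adipocyte markers were low in both libraries. Cd36, a fatty acid transporter, had 144 counts in control and 99 in knockdown cells, and Slc2a4, the insulin-responsive glucose transporter, had 26 and 17. Gapdh and Ppia, reference genes with many pseudogene copies, had 965 and 870 counts and 366 and 384 counts. Any effect of such copies on these counts was not tested.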
